A study of Homo sapiens with 9 samples.

Results

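The comparison described here sets NB4 cells given MC_2580 together with retinoic acid (RA) at 0.01 uM against NB4 cells given MC_2580 alone, and so gives the RA response of cells whose LSD1 was already inhibited. NB4, a cell line from human acute promyelocytic leukaemia, makes the PML-RARA fusion protein. RNA sequencing gave 1 library per treatment after 24 h: DMSO (the solvent), MC_2580, RA 0.01 uM, RA 1 uM, and MC_2580 with RA 0.01 uM, called the combination below. MC_2580 blocks LSD1, a demethylase of histones, and the labels give no dose for it. A separate set holds 2 wild-type (WT) and 2 LSD1 knockout (LSD1 KO) libraries of the same line, which served only to show how far like libraries differ. Of 35856 loci in the table of the treatments, 734 had a failed status for this pair and 35122 were kept, among them 17058 protein-coding genes with 1 locus. The 10008 of these that reached 1 FPKM (fragments per kilobase of transcript, scaled to library size) in MC_2580 or in the combination were compared.

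RA binds nuclear receptors that sit on DNA with partner receptors and switch from repressing to activating transcription when the ligand is bound. In promyelocytic leukaemia cells the fusion receptor holds these genes in a repressed state, and RA releases maturation along the granulocyte path, with surface integrins, the oxidase of phagocytes and antimicrobial granule proteins as its usual readouts. LSD1 removes methyl groups from lysine 4 of histone H3 in repressor complexes with CoREST and with the myeloid repressors GFI1 and GFI1B.

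Since each treatment has 1 library, no test across replicates exists and no p-value is given. A gene is called higher or lower where log2((FPKM + 1)/(FPKM + 1)) reached 1 or -1, which is 2-fold on that scale and understates the change of genes with low values. Across the 5 treatment libraries, 13050 to 13365 loci reached 1 FPKM and the 10 highest loci held 54.0% to 65.7% of the FPKM sum. The spacing of low values showed that 1 FPKM in the combination corresponded to 0.874 times the reads of 1 FPKM in MC_2580. No read totals were used here. KDM1A, the LSD1 gene itself (AOF2 in the table), stood at 66.9 FPKM in MC_2580 and 50.8 in the combination, which says nothing of the activity that the inhibitor targets. PML, at 23.2 and 40.5 FPKM, and RARA, at 12.2 and 24.0, stayed within 2-fold.

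With the inhibitor present, more genes were higher than lower after RA was added. Of the 10008 genes, 789 (7.88%) were higher in the combination than in MC_2580 and 331 (3.31%) were lower. The asymmetry grew with size: 272 genes were higher and 44 lower at 4-fold, 113 and 7 at 8-fold, and 53 and 0 at 16-fold. For scale, 2-fold calls in either direction made up 3.83% of genes between the 2 WT libraries and 3.43% between the 2 LSD1 KO libraries, where the largest log2 differences were 3.01 and 3.12 and 0 genes reached 16-fold. Those libraries belong to another experiment, so they give a size and not an error for the treated cells. The SD of the log2 differences over genes was 0.80 here, against 0.48 and 0.46 between like libraries, and the median was -0.0098. The authors' deposited table, which tests 1 library against the other, calls 609 of the genes higher (6.09%) and 208 lower (2.08%), and these include 571 of the 789 and 176 of the 331.

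Many of the higher genes came from near silence. In MC_2580, 199 of the 789 were under 1 FPKM, 62 were at 0.1 or less and 12 were listed at 0. At the other end, 131 of them reached 100 FPKM in the combination, where 24 had done so in MC_2580. Among the 331 lower genes, 60 were under 1 FPKM in the combination. At the threshold, MARCHF2 (18.6 to 38.1 FPKM) was just not called higher, while GCSH (19.6 to 9.29) was just called lower and EPDR1 (16.1 to 7.56) was just not.

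**Figure D1:**
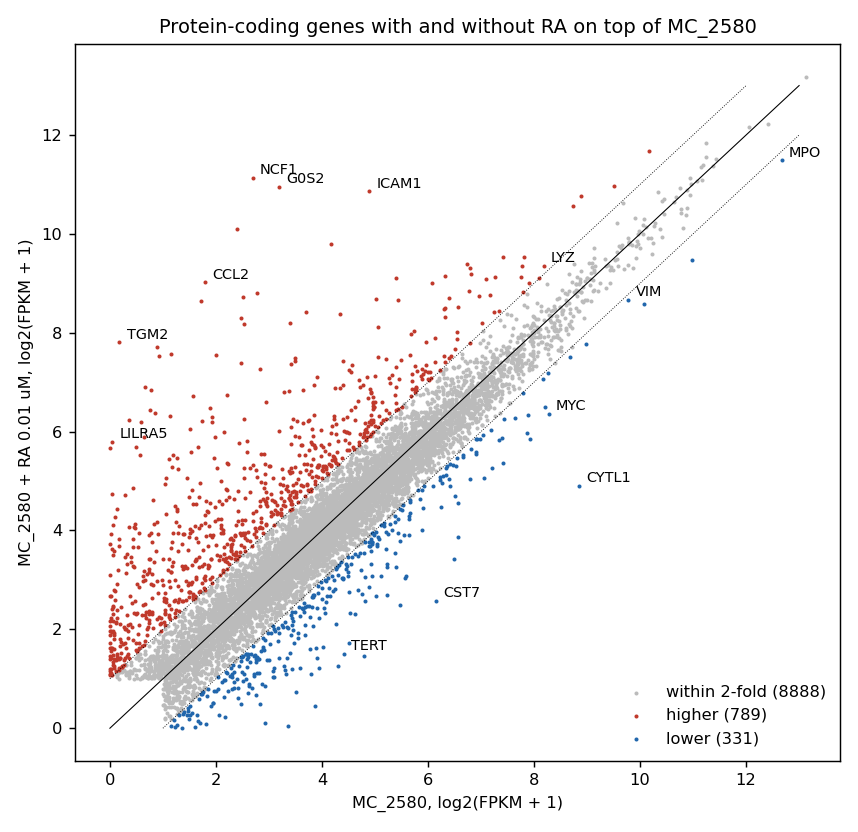
Each point is 1 of 10008 protein-coding genes, with its log2(FPKM + 1) in MC_2580 on the x axis and in the combination on the y axis; red points are the 789 higher genes, blue points the 331 lower genes, and the dotted lines mark 2-fold. The red points reach far above the diagonal, up to NCF1 with a log2 difference of 8.44, while the lowest blue point is CYTL1 at -3.94.

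The 15 genes with the largest differences included genes of the oxidase, of granules, of adhesion and of lipid mediators. NCF1 (chromosome 7, 73826245 to 73841594, build hg18), which encodes the p47phox organizer of the oxidase, went from 5.48 FPKM in MC_2580 to 2245 in the combination, a log2 difference of 8.44. It stood at 2.72 FPKM in DMSO, 929 in RA 0.01 uM and 1305 in RA 1 uM, so the 3 libraries with RA were high and the other two low. The value is uncertain to the extent that reads of its near-identical pseudogenes NCF1B and NCF1C were counted with it. G0S2, an inhibitor of triglyceride lipase (chromosome 1, 207915388 to 207916355), followed at 7.77, from 8.11 to 1987 FPKM. ALOX5AP, the protein that presents arachidonic acid to 5-lipoxygenase (chromosome 13, 30207669 to 30236556), went from 4.28 to 1091 FPKM (7.69). TGM2, tissue transglutaminase and a long-known retinoid-induced gene (chromosome 20, 36190280 to 36227114), went from 0.132 to 223 FPKM (7.63).

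Next came CCL2, a chemokine for monocytes (2.46 to 519 FPKM), CD52, a small lipid-anchored surface glycoprotein (2.28 to 396), and FGR, a Src-family kinase of myeloid cells (0.862 to 208). PADI2 and PADI4, both on chromosome 1 and encoding enzymes that convert arginine to citrulline, went from 0.906 to 184 FPKM and from 0.577 to 118. PADI4 is the member that citrullinates histones in neutrophils. BPI, a granule protein that kills Gram-negative bacteria, went from 1.23 to 189.7 FPKM. S100A8, a calprotectin subunit, went from 4.71 to 419.5 FPKM, and ASB2, a ubiquitin ligase subunit induced by RA in leukaemia cells, from 0.717 to 113. BCL2A1, a survival member of the BCL2 family, went from 5.86 to 445 FPKM. ICAM1, a ligand of the leukocyte integrins, went from 28.7 to 1854. CD52 is listed under a locus that holds 2 genes.

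All 15 were also past 2-fold higher in RA 0.01 uM over DMSO and in RA 1 uM over DMSO, and all 15 had a larger log2 difference with the inhibitor than RA 0.01 uM had without it. In 12 of them the combination was the highest of the 5 libraries, while TGM2, CCL2 and FGR were higher in RA 1 uM. The 15 were picked by their difference with the inhibitor. That picking favours both a larger difference with the inhibitor and a high level in the combination. The distance between the RA 0.01 uM responses with and without inhibitor varied between genes. For ALOX5AP they were 7.69 and 7.67, and for G0S2 7.77 and 6.21, with 6.95 FPKM of G0S2 in DMSO, 588 in RA 0.01 uM and 718 in RA 1 uM. The authors' deposited table calls all 15. Between like libraries of the knockout set 5 of the 15 were also past 2-fold (G0S2, CD52, BPI, BCL2A1 and ICAM1), the largest at 2.42 for CD52.

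**Figure D2:**
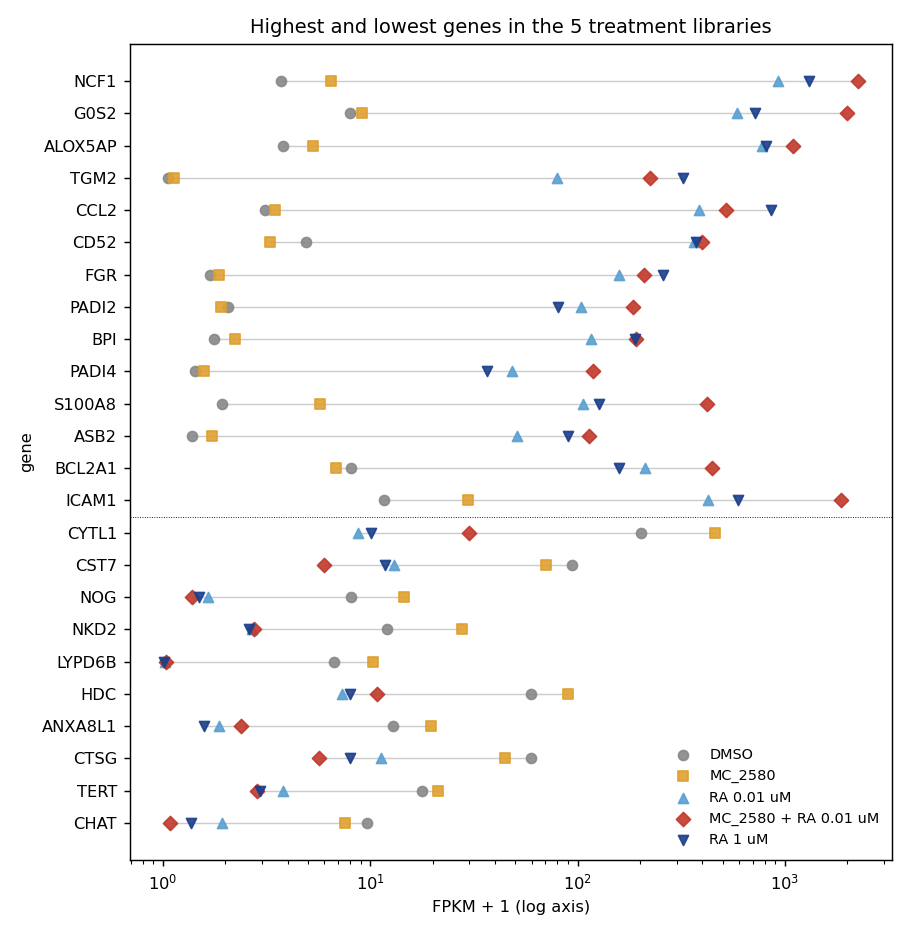
FPKM + 1 on a log axis for 14 of the 15 highest and the 10 lowest genes (rows, split by the dotted line) in the 5 treatment libraries, 1 library per symbol. In the upper rows DMSO and MC_2580 lie at the left and the 3 RA libraries at the right, and in the lower rows the order is turned, with CYTL1 at 459 FPKM in MC_2580 and 28.9 in the combination.

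The lowest genes were fewer and their differences smaller. CYTL1, a secreted cytokine-like protein of blood progenitors (chromosome 4, 5065844 to 5072100), went from 459 FPKM in MC_2580 to 28.9 in the combination (-3.94). It stood at 201 FPKM in DMSO, 7.71 in RA 0.01 uM and 9.03 in RA 1 uM, so the level left in the combination was the highest of the RA libraries. CST7, which encodes the protease inhibitor cystatin F, went from 69.6 to 4.96 FPKM (-3.57), and CTSG, the granule protease cathepsin G, from 43.6 to 4.65 (-2.98). NOG, an antagonist of bone morphogenetic proteins, went from 13.6 to 0.375 FPKM (-3.41), and NKD2, an inhibitor of Wnt signalling, from 26.6 to 1.76 (-3.32).

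LYPD6B, a member of the Ly6 family of surface proteins, fell from 9.27 to 0.0378 FPKM. HDC, the histamine-forming histidine decarboxylase of basophils and mast cells, went from 88.4 to 9.75 FPKM (-3.06). TERT, the catalytic subunit of telomerase, went from 20.2 to 1.85 FPKM (-2.90), and CHAT, choline acetyltransferase, from 6.55 to 0.0818 (-2.80). ANXA8L1, at 18.7 and 1.39 FPKM, is uncertain because ANXA8 is a near-identical copy and the locus holds 7 genes. All 10 were also past 2-fold lower in RA 0.01 uM over DMSO and in RA 1 uM over DMSO, and the authors' deposited table calls all 10. Between like libraries 5 of the 10 were past 2-fold (CYTL1, LYPD6B, HDC, CTSG and CHAT), CYTL1 the most, at -1.67.

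Genes of RA metabolism and direct RA targets were higher or within 2-fold. Of 21 tested members of the list of retinoid targets and metabolism, 12 were higher and 0 lower, against 7.88% and 3.31% of all genes. The same shares of all genes are the background for the counts of every list below. The list's median log2 difference was 1.22, against 0.51 for RA 0.01 uM over DMSO, and 0.21 and 0.06 between like libraries. CYP26A1, the enzyme that degrades RA, went from 0.0179 to 14.2 FPKM, with 2.49 in RA 0.01 uM and 37.4 in RA 1 uM. CYP26B1, its relative, went from 0.06355 to 5.85 FPKM, close to the 6.21 in RA 0.01 uM. DHRS3, a reductase that returns retinal to retinol, went from 1.95 to 104 FPKM, and STRA6, the receptor for retinol carried by its binding protein, from 0.18 to 2.27. Among the receptors, RARB, which carries a classical response element, went from 0.139 to 1.66 FPKM, below the 7.51 in RA 1 uM, while RXRB stood at 22.1 and 23.5 FPKM.

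The adaptor gene PRAM1 went from 11.98 to 339 FPKM, and PLAAT4 (RARRES3 in the table), a phospholipase-like growth suppressor, from 1.28 to 45.2. RGS2, a brake on G protein signalling, stood at 6.21 and 17.1 FPKM (1.32), where RA 0.01 uM over DMSO gave -0.14.

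The phagocyte NADPH oxidase, the enzyme complex that makes superoxide for killing microbes, had 5 of its 6 tested genes higher and 0 lower. CYBB, its catalytic subunit gp91phox (chromosome X), went from 19.2 FPKM in MC_2580 to 330 in the combination (4.04), with 10.7 in DMSO, 112 in RA 0.01 uM and 201 in RA 1 uM. RAC2, the GTPase of the complex, went from 136 to 541 FPKM (1.98). CYBA, the membrane partner of CYBB, lay just past the threshold at 271 and 550 FPKM (1.02). NCF4, p40phox, lay just under it at 38.1 and 74.9 (0.96). The median of the 6 was 2.40, against 2.26 for RA 0.01 uM over DMSO, and -0.03 and 0.25 between like libraries.

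Granule genes moved in both directions. Of 17 primary granule genes 8 were higher and 3 lower (median 0.81). Besides BPI, SERPINB1, an inhibitor of the granule proteases, went from 31.6 to 409 FPKM (3.65). MPO, myeloperoxidase, the most abundant of these enzymes, went from 6518 to 2873 FPKM (-1.18), alongside CTSG and CST7. The defensins were higher than in MC_2580 but below RA 0.01 uM alone: DEFA4 stood at 0.492 FPKM in MC_2580, 72.7 in the combination, 271 in RA 0.01 uM and 389 in RA 1 uM. DEFA3 stood at 10.2, 178, 1447 and 979 FPKM in that order, and its assignment is uncertain because DEFA1 is a near-identical copy. PRTN3, proteinase 3, was likewise at 219 and 454 FPKM with the inhibitor and at 178 in DMSO and 762.5 in RA 0.01 uM.

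Of 11 tested secondary and tertiary granule genes, 6 were higher and 1 lower, with a median of 1.01 against 0.14 for RA 0.01 uM over DMSO. Over all 18 matched members, tested or not, the median was 0.41. LTF, LCN2 and OLFM4 were listed at 0 FPKM in both MC_2580 and the combination. MMP8 (0.869 FPKM in the combination), CRISP3 (0.107), PGLYRP1 (0.393) and TCN1 (0.0328) were under 1 FPKM in both and not tested. HP, haptoglobin, stood at 15.9 FPKM in the combination and at 0.112 to 0.434 in the other 4 libraries. FCN1, ficolin 1, went from 11.5 to 114 FPKM (3.20) and was at 20.3 or less elsewhere. CAMP, the cathelicidin antimicrobial peptide precursor, went from 0.593 to 3.89 FPKM, and CHI3L1, a chitinase-like glycoprotein, from 3.59 to 27.7, the latter near the 33.1 of RA 0.01 uM alone. PTX3, a pattern-recognition pentraxin, was the 1 lower member, at 1.36 and 0.0122 FPKM. MMP9, gelatinase B, at 53.6 and 78.2 FPKM, and SLPI, a protease inhibitor, at 14.8 and 26.2, were within 2-fold.

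Of 11 S100 and annexin genes 4 were higher and 0 lower, against 7.88% and 3.31% of all genes. S100A9, the partner of S100A8 in calprotectin, went from 17.1 to 885 FPKM (5.61), with 2.44 in DMSO, 369 in RA 0.01 uM and 430.1 in RA 1 uM. S100A12, their neighbour on chromosome 1, stood at 10.1 FPKM in the combination and at 0.317 or less in the other 4. S100P went from 49.95 to 251 FPKM (2.30), below the 354 in RA 0.01 uM.

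Surface receptors of mature granulocytes were mostly higher. Of 27 tested members, 20 were higher and 0 lower. Their median was 1.87, against 0.48 for RA 0.01 uM over DMSO, and 0.37 and 0.34 between like libraries. Over all 33 matched members, tested or not, the median was 1.64. The members not tested, under 1 FPKM in both libraries, were CXCR1 (0.0592 FPKM in the combination), FCGR3B (0.215), CEACAM3 (0.850), CEACAM8 (0.140), FPR3 (0.0326) and MME (0). The integrin chains of complement receptor 3, the standard flow cytometry marker of this maturation, were both higher: ITGAM (CD11b) stood at 13.9 FPKM in MC_2580 and 136 in the combination, and ITGB2 (CD18) at 83.2 and 416. For ITGAM the other libraries held 2.68 (DMSO), 22.9 (RA 0.01 uM) and 42.5 (RA 1 uM), so the combination was the highest of the 5. ITGAX (CD11c) went from 2.81 to 71.7 FPKM (4.25) and CD38, an ectoenzyme induced by RA, from 10.3 to 170.5 (3.93). CEACAM1, an adhesion molecule of granulocytes, went from 0.0298 to 11.4 FPKM (3.58), where RA 0.01 uM reached 1.22 and RA 1 uM 3.99.

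The receptors for chemoattractants differed most from the RA response without inhibitor. FPR1 and FPR2 sense formyl peptides of bacteria. FPR1 stood at 3.67 FPKM in the combination, 0.104 in MC_2580, 0.378 in RA 0.01 uM and 0.223 in RA 1 uM. FPR2 stood at 6.53, 0.0995, 0.470 and 0.806 FPKM in the same order. C5AR1, the receptor of complement fragment C5a, went from 1.25 to 8.70 FPKM (2.11), where RA 0.01 uM over DMSO gave -0.18. CXCR2, the interleukin 8 receptor (IL8RB in the table), responded alike in both settings, at 2.14 and 1.95. CXCR4, which holds neutrophils in the marrow, went from 93.7 to 366 FPKM (1.96), against 61.7 and 86.4 without inhibitor. TREM1 (1.72), GPR84 (1.58) and the complement receptor CR1 (1.31) were higher as well, against 0.21, -0.27 and 0.31 without inhibitor. PLAUR, the urokinase receptor, was within 2-fold here at 28.8 and 25.4 FPKM, against 21.8 and 6.05 without inhibitor.

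Of 12 tested chemokine genes, 10 were higher and 0 lower, with a median of 2.07. The same list had medians of 1.32 and 1.12 between the like libraries of the knockout set. CXCL8, interleukin 8, the main attractant of neutrophils, went from 24.9 to 131 FPKM (2.35). CCL4, a chemokine that has a near-identical copy gene, went from 0.867 to 14.3 FPKM (3.04). CXCL10, an interferon-induced attractant of T cells, stood at 1.84 FPKM in DMSO, 20.0 in MC_2580, 0.897 in RA 0.01 uM, 74.8 in the combination and 7.32 in RA 1 uM. CCL24, an eosinophil attractant, was listed at 0 in MC_2580 and at 49.7 FPKM in the combination, below the 93.5 in RA 0.01 uM. CCL5 stood at 266 and 277 FPKM.

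NF-kB is the transcription factor of inflammatory signals. Of 27 genes in the list of its subunits, its targets and cytokine feedback, 11 were higher and 1 lower, with a median of 0.59, the same as between the WT libraries. After ICAM1, TNFAIP2 went from 4.79 to 288 FPKM (5.64), a difference that the authors' deposited table does not call. BCL3, a nuclear partner of NF-kB, went from 2.93 to 58.2 FPKM (3.91), and was at 10.3 in RA 0.01 uM. IL1B, interleukin 1 beta, went from 2.20 to 24.4 FPKM (2.99), against 0.623 and 2.68 without inhibitor. BIRC3, an inhibitor of apoptosis (1.86 to 14.3 FPKM), and REL, an NF-kB subunit (2.59 to 11.9), were past 2-fold with the inhibitor, and at 0.20 and 0.24 on the log2 scale without it. TNF stood at 107 and 104 FPKM, against 93.6 and 19.3 without inhibitor. IL1RN, the antagonist of the interleukin 1 receptor, was the 1 lower member at 14.5 and 1.34 FPKM, also not called in the authors' deposited table.

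Most interferon-response genes were higher. Interferons induce these genes through STAT and IRF factors, and their products block viral RNA and protein synthesis. Of 43 tested, 35 were higher and 0 lower, and all 43 were above 0 on the log2 scale. The median was 1.66, against 0.73 for RA 0.01 uM over DMSO and 1.22 for RA 1 uM over DMSO. Between like libraries the list's median was 0.81 (WT) and 0.30 (LSD1 KO), and what moves the list there was not tested here. OAS1, a sensor that makes oligoadenylate, stood at 0.944 FPKM in DMSO, 2.69 in MC_2580, 7.015 in RA 0.01 uM, 88.6 in the combination and 14.4 in RA 1 uM. The combination was 4.60 above MC_2580 on the log2 scale, and RA 0.01 uM 2.04 above DMSO.

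IFIT3, which binds foreign RNA with its family members, stood at 2.23, 3.26, 6.85, 30.8 and 12.5 FPKM in the same order of libraries. EPSTI1 went from 0.222 to 10.1 FPKM (3.18) and GBP1, a guanylate-binding protein, from 0.998 to 9.68 (2.42), where RA 0.01 uM over DMSO gave 0.96 and 0.29. IFI30, a lysosomal reductase (1.16 to 42.9 FPKM), IFI6, a mitochondrial membrane protein (9.61 to 164), and the immunoproteasome subunit PSMB8 (68.7 to 170) responded about as much in both settings, at 4.34, 3.96 and 1.29 with the inhibitor and 4.23, 3.46 and 1.37 without. Of the factors that drive the list, IRF7 went from 7.22 to 25.75 FPKM (1.70) and STAT2 from 12.3 to 27.1 (1.09), while IRF9 (9.68 to 19.5) stayed within 2-fold. IRF1, a related factor, was at 22.6 and 163 FPKM (2.79), with 15.5 in DMSO and 119 in RA 0.01 uM.

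Several of these genes share short motifs upstream of their starts. The 250 bases before the start were read from RefSeq (GRCh38.p14) for 594 of the higher and 248 of the lower genes and searched on both strands. The letters GAGGAAGT, a form bound by the myeloid factor PU.1, were present in 6.9% of the higher genes (41), 0.806% of the lower genes (2), 2.39% of the 8288 tested genes with a sequence and 2.13% of all 27305 promoters. The core of interferon response elements, which is GAAA, any 2 bases, and GAAA again, was present in 6.23% of the higher (37) and 0% of the lower genes, against 2.4% and 3.07%. CACGTG, an E-box bound by MYC among others, leaned the other way, with 6.23% of the higher and 14.1% of the lower genes against 9.35% and 6.49%. An NF-kB form, GGG, any 2 bases, and TTTCC, was present in 2.86% and 0.403%, against 2% and 1.73%. TTGCNNAA, a C/EBP form, was present in 8.92% and 5.65%, against 5.96% and 9.13%. TATAAA was present in 8.08% and 6.05%, against 5.2% and 11.1%, and the AP-1 form TGACTCA in 5.05% and 4.84%, against 2.41% and 4.16%. A direct repeat of the receptor hexamer AGGTCA, or its variants that begin with G or hold T in place of the last G, spaced by 5 bases was found upstream of RARB and BATF2 among the higher genes (0.337%), of 0 lower genes and of 0.0696% of all promoters. Single hexamers, which the repeat contains by construction, were present in 32.8% of the higher and 24.2% of the lower genes, against 28% and 34%, and repeats spaced by 1 or 2 bases in 0 of either. These matches are descriptions of letters and not sites of binding.

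The promoters shown are 3 with the PU.1 form (NCF1, ALOX5AP and BCL2A1, whose genes are among the 15 highest), 3 more with the interferon form (CYBB, IFI6 and IFIT3, from the oxidase and interferon lists) and that of RARB with the direct repeat. Each runs 5′ to 3′ on the gene's strand and ends at the base before the start, and capitals mark the PU.1 form, the interferon form and the direct repeat on either strand and no other motif. NCF1 lies at chr7:74773761-74774010 (plus strand), ALOX5AP at chr13:30713235-30713484 (plus), BCL2A1 at chr15:79971197-79971446 (minus), CYBB at chrX:37779809-37780058 (plus), IFI6 at chr1:27672193-27672442 (minus), IFIT3 at chr10:89327747-89327996 (plus) and RARB at chr3:25428013-25428262 (plus).
NCF1: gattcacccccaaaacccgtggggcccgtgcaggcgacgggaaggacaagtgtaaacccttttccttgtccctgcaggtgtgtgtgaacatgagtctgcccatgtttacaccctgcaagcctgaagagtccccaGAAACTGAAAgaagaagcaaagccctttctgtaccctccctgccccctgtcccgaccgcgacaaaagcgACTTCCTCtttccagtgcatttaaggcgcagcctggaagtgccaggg
ALOX5AP: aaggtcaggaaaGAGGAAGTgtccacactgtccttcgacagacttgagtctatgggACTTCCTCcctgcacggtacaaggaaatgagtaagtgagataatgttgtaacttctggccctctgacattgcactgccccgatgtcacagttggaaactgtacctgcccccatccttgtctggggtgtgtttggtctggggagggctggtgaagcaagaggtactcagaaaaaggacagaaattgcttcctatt
BCL2A1: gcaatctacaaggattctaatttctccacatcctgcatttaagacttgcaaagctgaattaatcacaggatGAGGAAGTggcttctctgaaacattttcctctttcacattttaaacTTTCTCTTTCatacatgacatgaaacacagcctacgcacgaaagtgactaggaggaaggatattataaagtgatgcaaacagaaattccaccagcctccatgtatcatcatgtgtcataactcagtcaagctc
CYBB: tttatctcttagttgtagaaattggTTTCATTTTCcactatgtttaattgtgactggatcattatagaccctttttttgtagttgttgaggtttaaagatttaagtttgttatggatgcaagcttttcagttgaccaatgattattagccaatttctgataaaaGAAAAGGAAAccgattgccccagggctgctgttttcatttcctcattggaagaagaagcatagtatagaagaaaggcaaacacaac
IFI6: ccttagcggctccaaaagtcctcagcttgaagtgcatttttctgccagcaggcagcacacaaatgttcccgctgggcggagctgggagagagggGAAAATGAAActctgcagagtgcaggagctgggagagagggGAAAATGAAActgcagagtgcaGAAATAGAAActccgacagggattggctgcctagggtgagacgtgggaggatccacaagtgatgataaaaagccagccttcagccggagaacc
IFIT3: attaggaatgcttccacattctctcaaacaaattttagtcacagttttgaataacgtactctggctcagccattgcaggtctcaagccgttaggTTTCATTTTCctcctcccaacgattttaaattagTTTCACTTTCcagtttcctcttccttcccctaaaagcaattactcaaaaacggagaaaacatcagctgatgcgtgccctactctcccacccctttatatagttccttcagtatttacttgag
RARB: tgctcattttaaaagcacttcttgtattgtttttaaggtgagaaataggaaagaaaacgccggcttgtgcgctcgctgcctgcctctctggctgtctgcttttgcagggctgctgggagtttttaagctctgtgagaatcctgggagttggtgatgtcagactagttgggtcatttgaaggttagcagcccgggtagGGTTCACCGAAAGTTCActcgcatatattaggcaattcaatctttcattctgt
NCF1 and BCL2A1 hold both forms, in NCF1 from -116 to -107 (interferon) and from -47 to -40 (PU.1), counted back from the start, and in BCL2A1 from -133 to -124 and from -179 to -172. IFI6 holds the interferon form 3 times and IFIT3 and CYBB hold it 2 times each. In RARB the repeat runs from -53 to -37. The marked motifs do not overlap in these windows.

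Lipid mediator genes added to ALOX5AP were PTGES, prostaglandin E synthase, at 0.0245 FPKM in MC_2580 and 25.7 in the combination (4.71), and PTGS1, cyclooxygenase 1, at 1.795 and 24.6 (3.19). PTGES was listed at 0 in DMSO and stood at 5.16 FPKM in RA 0.01 uM and 87.8 in RA 1 uM. In all, 4 of 6 tested members were higher and 0 lower.

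Among myeloid transcription factors 9 of 32 were higher and 2 lower, against 7.88% and 3.31% of all genes, with a median of 0.39. CEBPE, which directs terminal granulocyte maturation and secondary granule genes, went from 52.2 to 262 FPKM (2.30), and CEBPB, the factor of emergency granulopoiesis, from 4.56 to 167 (4.92). SPI1, the gene of PU.1, went from 92.6 to 259 FPKM (1.48). ID1 and ID2, which block partners of basic helix-loop-helix factors, went from 0.570 to 58.6 and from 1.86 to 65.1 FPKM. These 5 differences lay within 0.50 of those without inhibitor (2.20, 4.76, 1.66, 5.43 and 4.97). CEBPA, the factor of early granulocyte commitment, stood at 43.2 and 26.6 FPKM. IRF8, a monocyte factor, stood at 16.4 and 33.5 FPKM (0.99) with inhibitor and at 6.32 and 3.04 (-0.86) without. MYB, a progenitor factor, was lower at 119 and 57.05 FPKM (-1.04), and KLF4 was lower at 5.58 and 1.08 (-1.66).

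The genes of the LSD1 complex itself mostly stayed within 2-fold, with 2 of 16 higher and 1 lower, against 7.88% and 3.31% of all genes. Counts this small do not set the list apart from all genes. GFI1B, the repressor that recruits LSD1, stood at 1.87 FPKM in DMSO, 6.71 in MC_2580, 22.9 in RA 0.01 uM, 95.4 in the combination and 8.83 in RA 1 uM. Its paralog GFI1 stood at 106 and 167 FPKM with inhibitor and at 67.1 and 41.4 without. GSE1 was higher (14.8 to 64.8 FPKM) and RCOR2, a CoREST paralog, lower (4.77 to 1.15), while RCOR1 held 27.8 and 29.4.

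Growth genes were mostly within 2-fold. Of 39 cell cycle and DNA replication genes 1 was higher, CCND1 (7.43 to 32.4 FPKM), and 0 were lower. The list's median was -0.39, smaller in size than the -0.47 and -0.68 between like libraries. Of the 39, only 9 were above 0 on the log2 scale. They include CCND1 and the markers of dividing cells MKI67 (69.5 and 81.7 FPKM) and TOP2A (97.8 and 97.9). CDKN2D, a CDK4 inhibitor, went from 19.9 to 122 FPKM (2.55), and the antiproliferative gene BTG2 from 2.08 to 9.54 (1.78), the 2 called of 12 tested. MYC went from 309 to 81.3 FPKM (-1.91), against -1.23 without inhibitor. With SRM (spermidine synthase, -1.17) and TERT it made up the 3 lower members of 22 in the list of MYC and ribosome biogenesis. That list's median of -0.62 was close in size to the -0.56 and -0.62 between like libraries.

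In cholesterol synthesis 1 of 21 genes was lower, HMGCS1 (286 to 133 FPKM), a share near the 3.31% of all genes, and the authors' deposited table does not call it. The list had a median of -0.48 against -0.18 without inhibitor, and 0.51 and -0.03 between like libraries. Of 13 genes of the amino acid stress response 5 were lower, among them PSAT1 (45.5 to 14.1 FPKM) and PHGDH (119 to 45.5), enzymes of serine synthesis, and SLC3A2 (160.4 to 55.5), a subunit of amino acid exchangers. RA 0.01 uM over DMSO gave 7 lower, and medians were -0.33 with and -1.06 without inhibitor.

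The survival genes of the BCL2 family moved in opposite directions. BCL2 went from 15.3 to 2.12 FPKM (-2.39) while BCL2A1 and MCL1 (53.2 to 115 FPKM, 1.10) were higher. Of 21 apoptosis regulators 5 were higher and 2 lower, against 7.88% and 3.31% of all genes. Among genes of coagulation, which is disturbed in this leukaemia, THBD, the anticoagulant thrombomodulin, went from 1.87 to 47.0 FPKM (4.07) and F3, tissue factor, from 12.1 to 4.58 (-1.23), both close to the responses without inhibitor (3.95 and -1.15). SERPINB2, an inhibitor of plasminogen activators, stood at 11.7 FPKM in the combination, 0.345 in MC_2580, 0.333 in RA 0.01 uM and 3.75 in RA 1 uM.

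Markers of other blood lineages were also read. Of 12 tested monocyte and macrophage genes 5 were higher and 2 lower, and the summed FPKM of the 19 members with a value in all 5 libraries was 185 in the combination, 79.0 in MC_2580, and 38.1 to 45.7 in the other 3. FCN1, also counted above as a granule gene, made up most of that difference: without it the sums were 70.7 in the combination and 67.5 in MC_2580. CD86, a costimulatory ligand, stood at 27.3 FPKM in the combination, 1.93 in MC_2580 and at most 0.736 in the others. CD14, the co-receptor for lipopolysaccharide, stood at 3.03 and 0.221 FPKM, while CD163, MRC1, MSR1, C1QA, C1QB and VCAN were under 0.1 FPKM in all 5 libraries. STAB1, a scavenger receptor, was lower (31.6 to 5.40 FPKM). Of 8 lymphoid genes 4 were higher, led by CD79A (2.33 to 73.4 FPKM, with 49.95 in RA 0.01 uM), while CD2, CD5, MS4A1, PAX5, LCK, ZAP70, GZMB and KLRD1 were under 0.1 FPKM throughout.

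Eosinophil, basophil and mast cell genes had 2 higher and 4 lower of 9, against 7.88% and 3.31% of all genes. PRG2, eosinophil major basic protein, went from 1075 to 380.0 FPKM and EPX, eosinophil peroxidase, from 27.0 to 7.30. CCR3 (0.0822 to 3.37 FPKM) and CLC (0.0964 to 1.74) were higher. The globin genes HBA1, HBA2, HBB and HBG1 were under 0.1 FPKM in all 5. Of the remaining lists, stem and progenitor genes had 0 higher and 1 lower of 6, namely GATA2 (36.5 to 8.59 FPKM). A count of 1 in 6 is too small to set against the share of all genes. The 2 tested erythroid and 2 tested megakaryocyte genes were within 2-fold, and of 4 fibroblast and epithelial genes 1 was lower, VIM. In a bulk library, more cells of 1 kind and more RNA per cell cannot be told apart.

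**Figure D3:**
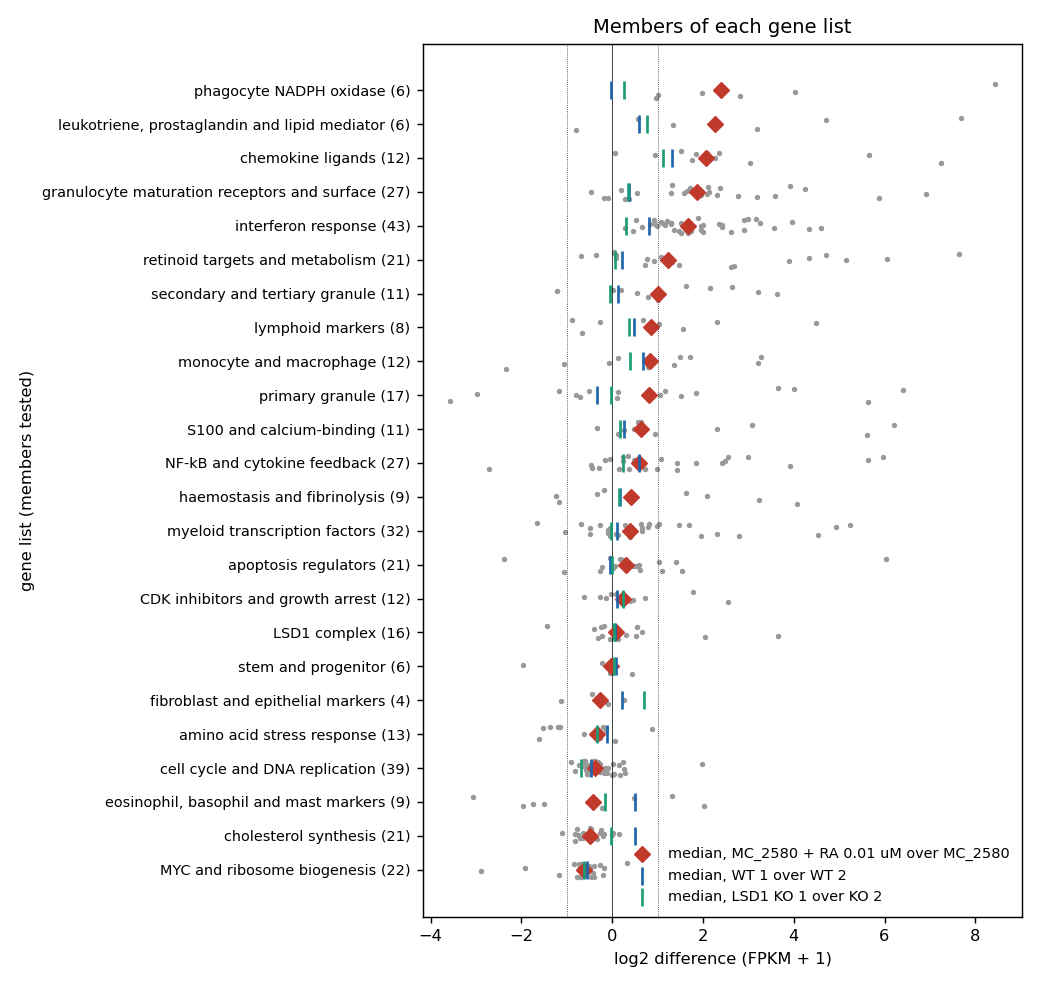
Log2 difference of the combination over MC_2580 (x axis) for the tested members of each gene list with 4 or more of them (rows, grey points), with the list's median as a red diamond and its medians between the WT and between the LSD1 KO libraries as blue and green ticks. The oxidase, granulocyte surface, interferon and retinoid lists lie right of their ticks, with medians from 1.22 to 2.40, and the growth lists lie near their ticks.

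The RA response with inhibitor was then set against that of RA 0.01 uM over DMSO, which shares no library with it. Over 9966 genes that reached 1 FPKM in 1 of the 4 libraries, the log2 differences had a Pearson correlation of 0.86 and a Spearman correlation of 0.77; genes are not independent replicates, and this is a description. RA 0.01 uM without inhibitor called 468 genes higher (4.82%) and 271 lower (2.79%). The higher lists shared 425 genes, 53.9% of the 789 and 90.8% of the 468. In 289 of the 425 the difference was larger with the inhibitor. The lower lists shared 167 genes, 50.5% of the 331 and 61.6% of the 271, and 111 of these were larger with the inhibitor.

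The genes past the threshold in 1 setting mostly leaned the same way in the other. The 364 that were higher with the inhibitor and not without had median log2 differences of 1.31 and 0.62, and 325 had the same sign without it. Of 164 genes lower with the inhibitor and not without, 159 had the same sign, with medians of -1.18 and -0.71. A further 43 genes were higher and 104 lower without the inhibitor and not with it. Crossing a threshold in 1 setting does not show a difference between settings, and with 1 library each that difference has no test.

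**Figure D4:**
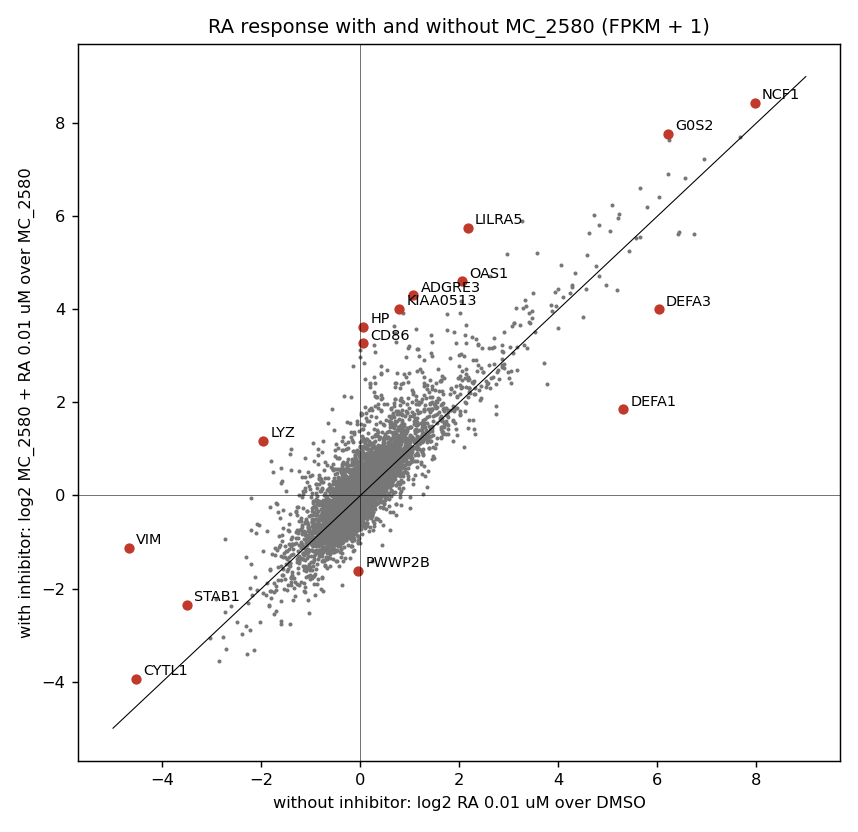
Log2 difference of RA 0.01 uM over DMSO (x axis) against that of the combination over MC_2580 (y axis) for 9918 tested genes with values in all 4 libraries; the line marks equal responses and red points are named. Most genes lie along the line, LILRA5, HP and CD86 lie above it, DEFA1 and DEFA3 below it, and LYZ is in the upper left.

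The genes with the widest gaps between the 2 responses are described next. LILRA5, an activating receptor of monocytes and neutrophils (chromosome 19, 59510165 to 59516221, hg18), stood at 0.0150 FPKM in DMSO, 0.0339 in MC_2580, 3.55 in RA 0.01 uM, 54.7 in the combination and 8.81 in RA 1 uM, which gave 5.75 with and 2.16 without inhibitor. HP gave 3.63 and 0.05. ADGRE3 (EMR3 in the table), an adhesion receptor of granulocytes, stood at 0.0949 FPKM in MC_2580, 20.6 in the combination, 1.27 in RA 0.01 uM and 8.62 in RA 1 uM (4.30 and 1.07). KIAA0513 went from 1.08 to 32.6 FPKM, with 0.230 in DMSO and 1.11 in RA 0.01 uM (4.01 and 0.78).

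VIM, the intermediate filament vimentin (chromosome 10, 17311250 to 17319591), was lower in both settings but to very different levels. It stood at 593 FPKM in DMSO and 22.2 in RA 0.01 uM (-4.68), and at 879 in MC_2580 and 404 in the combination (-1.12). In RA 1 uM it stood at 42.7 FPKM, so the combination was closer to the libraries without RA than to those with RA. At the other end of the scale, DEFA1 stood at 3.29 and 14.5 FPKM with inhibitor and at 2.62 and 142 without (1.85 and 5.30), and DEFA3 gave 3.997 and 6.03. PHACTR3 (4.30 to 0.983 FPKM, against 5.43 and 6.53), PWWP2B (7.01 to 1.61, against 3.90 and 3.75) and AP4S1 (6.92 to 2.79, against 2.35 and 3.51) were lower with inhibitor and within 2-fold without. These 3 calls were lost with 5 FPKM added, at -0.64, -0.86 and -0.61, and the authors' deposited table does not call AP4S1. PWWP2B and AP4S1 are listed under loci of 5 and 3 genes. LYZ, lysozyme, was the 1 gene called in opposite directions, at 290 and 653 FPKM with inhibitor and 45.3 and 10.9 without.

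To follow genes that RA is known to move in this line without choosing them on this comparison, the set was picked in RA 1 uM over DMSO, which shares no library with the combination or MC_2580. RA 1 uM called 633 genes higher (6.49%) and 266 lower (2.73%). Of the 633, 631 were above 0 in the combination over MC_2580 and 530 (83.7%) were called there, with a median of 1.72 (quartiles 1.19 and 2.49). In RA 0.01 uM over DMSO 421 (66.5%) were called, with a median of 1.28; that comparison shares the DMSO library with the picking. The median in RA 1 uM itself was 1.59.

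Genes that RA 1 uM lowered had similar medians with and without the inhibitor. Of 265 with values in all libraries, 255 were below 0 with the inhibitor and 187 (70.6%) were called, with a median of -1.25. In RA 0.01 uM over DMSO 217 (81.9%) were called, with a median of -1.27, and the median in RA 1 uM was -1.30. RA 0.01 uM over DMSO shares the DMSO library with the picking, which by itself favours calls there. Among all 780 higher genes with a value in RA 1 uM, the combination exceeded RA 1 uM in 612, and it was the highest of the 5 libraries in 589 of the 789. It was the lowest of the 5 in 213 of the 331 lower genes. These counts compare levels, to which the inhibitor and RA both contribute. The genes were also picked for a high or low value in the combination relative to MC_2580, which by itself favours these counts.

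**Figure D5:**
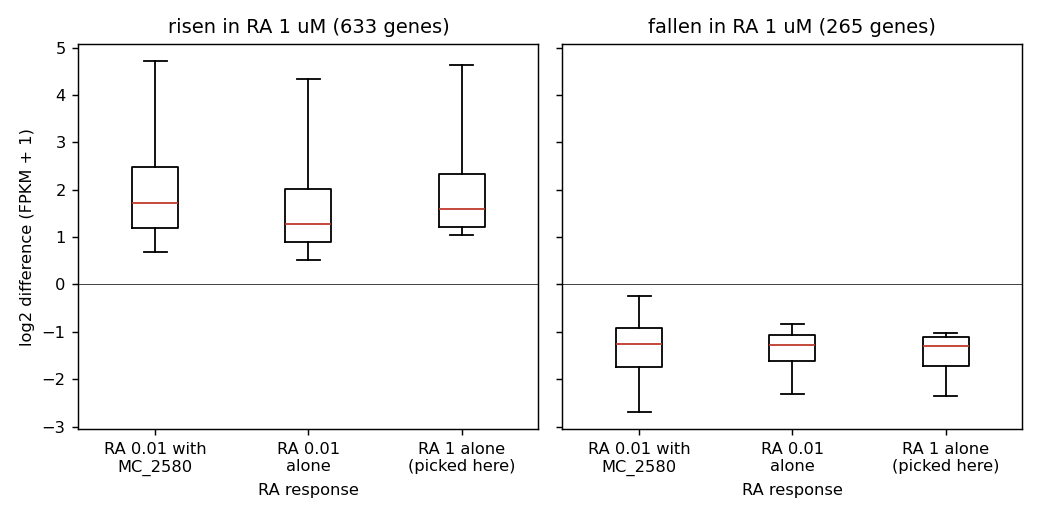
Log2 differences (y axis) of the 633 genes higher and 265 genes lower in RA 1 uM over DMSO, in 3 comparisons (x axis); boxes span the quartiles, red lines are medians and whiskers run from the 5th to the 95th percentile. For the higher genes the median was 1.72 with the inhibitor, 1.28 in RA 0.01 uM alone and 1.59 in RA 1 uM, and for the lower genes the 3 medians lay from -1.30 to -1.25.

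Some genes called higher in MC_2580 over DMSO were higher again in the combination and others were lower. MC_2580 over DMSO called 71 genes higher (0.737%) and 2 lower (0.0208%), and it shares the MC_2580 library with the comparison described here. Picking genes for a high value in that library by itself favours lower calls in the combination over MC_2580. Of all genes tested, 7.88% were higher and 3.31% lower there. Of the 71, 26 were higher again in the combination, among them ITGAM, S100A8, S100A9, ICAM1, CXCL10, CD86 and GFI1B. Another 15 were lower, among them CYTL1, NKD2, IL1RN, STAB1, KLF4 and ANXA2. ANXA2, a membrane-binding annexin that promotes plasmin formation, stood at 31.9 FPKM in DMSO, 76.6 in MC_2580, 9.15 in RA 0.01 uM, 33.3 in the combination and 8.84 in RA 1 uM. STAB1 stood at 12.5, 31.6, 0.188, 5.40 and 0.272 FPKM in that order. In both genes the combination lay above the other RA libraries and below MC_2580.

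Higher genes often lay beside each other. Of 611 higher genes with a locus of their own, 221 (36.2%) had another higher gene within 100 kb, against 965 of 6317 other tested genes (15.3%). Neighbours that share a family can also share sequence and reads, so this is a description. The groups named next were chosen after their values were seen. On chromosome 10 (90963306 to 91170733, hg18) IFIT2, IFIT1, IFIT3 and IFIT5 were higher by 1.17 to 2.90; the first 3 are listed under 1 locus of 6 genes and so are not among the 611. On chromosome 1 (151596954 to 151630173) S100A9, S100A12 and S100A8 were higher by 3.07 to 6.20. On chromosome 16 (31176008 to 31345327) the integrin genes ITGAM, ITGAX and ITGAD were higher by 1.26 to 4.25, with ITGAM and ITGAX likewise listed under 1 locus of 3 genes. On chromosome 19 (10242765 to 10311344) ICAM1, ICAM4 and ICAM3 were higher by 1.08 to 5.96.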

How the data were processed

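The deposited FPKM values of the 5 treatment libraries were read for each pair of libraries, and loci with a failed status in this pair were dropped. Per the submitters' processing notes, the tools were Cuffdiff, Cufflinks, TopHat2 2.0.10, TopHat 1.3.1 and CASAVA 1.8 and the build was hg18, with no role or order given; the annotation and the scaling between libraries are not stated there or in the labels. Per the labels, total RNA was made into libraries with a kit that does not mark strand, so overlapping and antisense genes cannot be separated. The knockout set was deposited as FPKM with 0.001 added, which was subtracted.

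Log2 differences were computed here with 1 FPKM added. They cover protein-coding genes (RefSeq, by symbol) with 1 locus and at least 1 FPKM in 1 of the 2 libraries. With 1 library per treatment, calls rest on size (2-fold) and on no test. The labels do not say that the 2 libraries of a knockout-set group were separate cultures. Differences between like libraries are library 1 over library 2, so their sign is arbitrary. Some lists shifted alike in the WT and LSD1 KO pairs, such as chemokines (1.32 and 1.12) and cell cycle genes (-0.47 and -0.68). Others did not, such as cholesterol synthesis (0.51 and -0.03), and the cause was not tested. Named genes are the 15 highest and 10 lowest differences and the 5 highest and 5 lowest differences between the RA responses with and without inhibitor, each at 5 FPKM or more, with list members as examples and KDM1A, PML and RARA as label checks. The members and the 26 gene lists were chosen with earlier results of these data known. Some genes that the rule or the counts include are not reported here. Named genes whose deposited locus also holds other genes, so that reads may be shared, are ANXA8L1, AP4S1, CCND1, CD14, CD52, CHAT, CSF1R, DHRS3, EPSTI1, GFI1B, GSE1, HBG1, HDC, IFIT1 to IFIT3, IRF9, ITGAM, ITGAX, MARCHF2, MMP9, MRC1, PLAUR, PSMB8, PTX3, PWWP2B, RARB, RCOR1, REL, RXRB, SLC3A2, SPI1, STAB1 and TOP2A. Of 567 list entries 534 matched a gene. Start coordinates are 1 above those in the deposited table, because miRNA loci there have the RefSeq length as end minus start in 39.8% of 382 cases and as end minus start plus 1 in 0%. Alternatives were other pseudocounts, filters, thresholds and scalings, all loci, and the authors' calls. Values were computed with numpy 2.4.6 and pandas 2.3.3 under Python 3.11.15, and plotted with matplotlib 3.10.9.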

Additional observations from a re-analysis of the deposited data

Results flagged for a closer look

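LYZ, the gene of the antibacterial enzyme lysozyme, had an RA response of opposite direction with and without the inhibitor. The log2 difference was 1.17 for the combination over MC_2580 and -1.96 for RA 0.01 uM over DMSO. With 1 library per treatment the difference between the responses was not tested. Between like libraries of the knockout set LYZ itself differed by -1.73 (WT) and -1.26 (LSD1 KO) on the log2 scale.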

How the results depend on the processing

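Alternatives were run for the counts of genes, the medians of genes picked in RA 1 uM, the list medians and 35 named genes, and these kept their direction; other values of single genes, the correlations and the motif and neighbour shares were not recomputed. Counts depended on the pseudocount and threshold: with 0.1 FPKM added, 511 genes were lower and 272 lower in both RA 0.01 uM comparisons; with 5 FPKM added, 484 were higher and 143 lower, and 254 and 62 in both. At 4-fold the counts were 272 higher, 44 lower, 152 and 19 in both; at 1.5-fold 1391, 1082, 791 and 503. Over all loci 627 were lower, and the authors' calls gave 208. Picking RA 1 uM genes at 4-fold gave medians of 2.84 and -2.35 with inhibitor. List medians moved most with the pseudocount. With 0.1 FPKM added they were 2.88 (retinoid), 3.04 (oxidase), 1.52 (secondary granule) and 0.73 (haemostasis). With 5 FPKM added they were 0.71 (retinoid), 1.11 (granulocyte surface), 1.64 (oxidase), 0.66 (secondary granule), 0.28 (transcription factors), 1.34 (lipid mediator), 0.23 (apoptosis) and 0.14 (haemostasis). A filter of 5 FPKM gave 1.97 (retinoid), 1.72 (secondary granule), 3.19 (lipid mediator), -0.74 (amino acid stress), 0.72 (haemostasis), -1.86 (eosinophil) and -0.42 (erythroid). Quantile normalization gave 1.81 (oxidase), -0.12 (stem) and -0.25 (erythroid), and 716 higher and 432 lower genes. The other 108 list medians moved by less than the spread of like libraries, as did 93 of 140 values of named genes. No paired analysis was possible because the values come from no test and each treatment has 1 library. Without read totals, the counting error of genes under 1 FPKM is unknown.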
